A study of Homo sapiens with 9 samples.

Results

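The genes described here are the human ABC transporters, members of the ATP-binding cassette family. They were found in the deposited table of read counts by symbol (ABC, a letter from A to G and a number), after its NCBI gene identifiers had been matched to RefSeq symbols. Of 28395 genes in the table, 46 carried such a symbol, 1 of them a pseudogene (ABCC13) that was left out, so that 45 genes remained. Subfamily A had 12 of them, B 9, C 11, D 4, E 1, F 3 and G 5.

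RNA was sequenced from HK2, an immortalised line from normal kidney proximal tubule, from 786-O, a line from a primary clear cell renal cell carcinoma (ccRCC), and from 786-M1A, a derivative of 786-O recovered from lung metastases after injection into animals. All cells were grown stably in Plasmax, a medium modelled on the nutrients of human serum, without further treatment, and each line gave 3 libraries. Every group is a single cell line. A difference from HK2 therefore cannot be told apart from one between the people the lines came from. 786-M1A and 786-O go back to the same tumour line, but 786-M1A is a single derivative. A difference that goes with metastasis cannot be told apart from one particular to this derivative. The p-values measure the spread between the libraries of a line. The comparisons ask how ABC genes differ between the carcinoma lines and the tubule line, and between the metastatic derivative and its parent.

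ABC transporters use ATP to move lipids, sterols, metal complexes, peptides, conjugates and drugs across membranes. In the kidney the proximal tubule is known for the multidrug pumps of its apical membrane, which pass drugs, urate and glutathione or glucuronide conjugates into the urine. The family also holds mitochondrial, lysosomal and peroxisomal carriers, while subfamilies E and F have the ATP-binding domains without a membrane part and act on ribosomes.

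The libraries held between 30212291 and 45362428 counts, of which the 45 genes took between 0.171% and 0.195%. Levels are given as CPM, read counts scaled to the library size with TMM factors, and as CPM per kb of merged exon length where genes are set beside each other. Each comparison is a contrast of a quasi-likelihood fit of edgeR, and a gene is called where its Benjamini-Hochberg adjusted p over the 12695 genes tested was below 0.05. Standard errors (SE) are on the log2 scale. All 9 libraries correlated best with a library of their own line. LRP2, SLC22A6 and SLC22A8, defining genes of the proximal tubule, were at 0 in every library of HK2 as of the carcinoma lines, while PAX8 was at 167 CPM in HK2, compared with 164 in 786-O and 183 in 786-M1A. CA9, a gene typical of ccRCC, was at or below 0.0311 CPM on average in all 3 lines. VIM, also on the ccRCC list, was at 1395, 4835 and 6560 CPM in HK2, 786-O and 786-M1A. Of the 3 immune markers PTPRC and CD3E had no count, while CD68, a lysosomal protein abundant in macrophages, was at 50.8, 26.9 and 36.1 CPM. Of the 5 fibroblast markers DCN was at or below 0.126 CPM on average, whereas COL1A1 was at 53.5, 291 and 16.5 and PDGFRB at 4.98, 2.59 and 282 CPM. The part of these genes in the results was not tested.

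Of the 45 genes, 27 averaged 50 counts or more per library and were tested. ABCG2, at a mean of 51.1 counts, lay just inside the filter, and ABCC6, at 33.1, just outside it. The remaining 18 were not tested, and ABCA6, ABCA8, ABCA9 and ABCC8 were at 0 in every library. Summed over the family, the level was 1861 ± 54.3 CPM (SD, n = 3) in HK2, compared with 1738 ± 44.6 in 786-O and 1815 ± 47.7 in 786-M1A, while single members moved much further than this sum. A lower level in every cell and fewer cells with the transcript cannot be told apart in RNA of whole cultures.

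In 786-O against HK2, 22 of the 27 tested genes were called, 11 higher and 11 lower, where 84.2% of all genes tested were called, 41.7% higher and 42.5% lower. A called difference of at least 2-fold was seen for 6 of them, 4 higher and 2 lower, against 22.3% of all genes. In 786-M1A against HK2, 25 were called, 11 higher and 14 lower, where 85.0% of all genes were called, 42.0% higher and 42.9% lower. At least 2-fold differences were found for 11 genes, 4 higher and 7 lower, against 25.4% of all genes. In 786-M1A against 786-O, 16 were called, 6 higher and 10 lower, where 56.2% of all genes were called, 29.0% higher and 27.1% lower, and 3 reached 2-fold, against 6.55% of all genes. The median log2 fold change of the 27 genes was 0.07, -0.22 and -0.10 in these comparisons, beside -0.01, -0.01 and 0.01 for all genes tested. Both comparisons with HK2 use the same HK2 libraries, so their values are given side by side and not as independent results.

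Across the 3 comparisons ABCG2 was the only tested member called in none. Among others, ABCA2, ABCB8, ABCC4 and ABCF2 were higher in 786-O than in HK2 and higher again in 786-M1A. ABCB1, ABCB9, ABCB10 and ABCE1 were lower in 786-O than in HK2 and lower again in 786-M1A. ABCC2 was the only tested member called in opposite directions in the carcinoma lines against HK2, a pattern not counted over all genes.

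**Figure D1:**
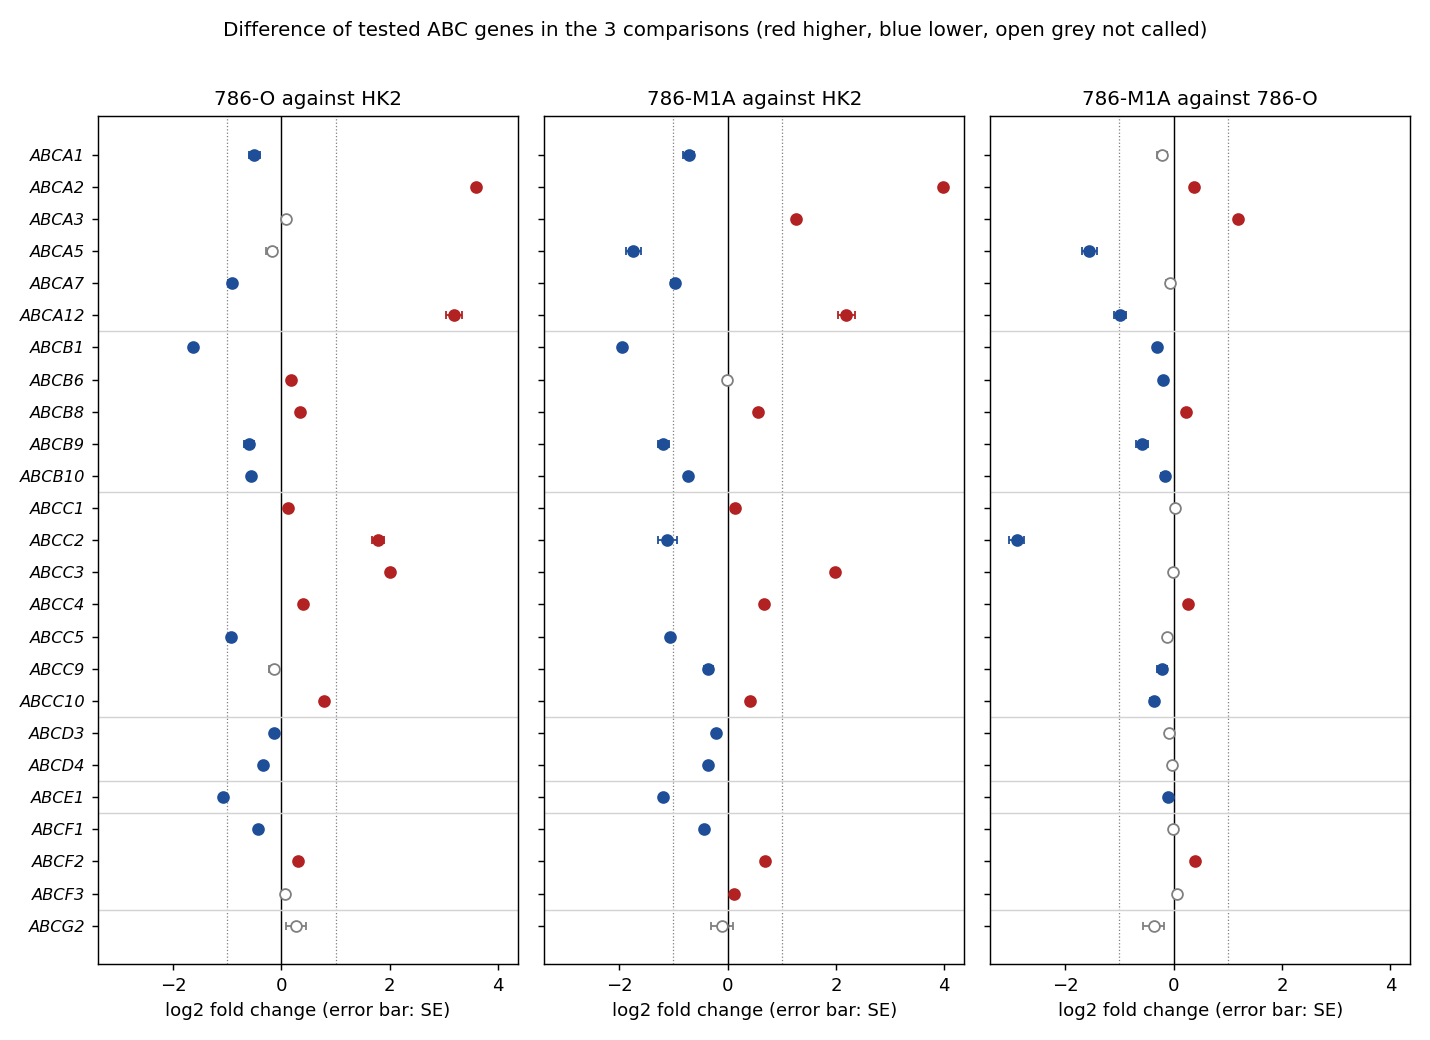
Log2 fold change of 25 of the 27 tested ABC genes, in rows by subfamily, in the 3 comparisons in panels; points are edgeR estimates, error bars are SE, red is called higher, blue called lower, open grey not called, and dotted lines mark a 2-fold difference. ABCA2 (3.59 and 3.97) is farthest to the right in both panels against HK2, and ABCC2 (-2.90) is farthest to the left in 786-M1A against 786-O.

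Promoter sequences are shown for the members with the largest called rise and the largest called fall in any comparison, which were ABCA2, ABCA3, ABCB1 and ABCC2, so that the base composition and short motifs upstream of these genes can be read beside their levels. Each is the 250 bases before the gene start annotated by RefSeq on GRCh38.p14, written 5′ to 3′ on the strand of the gene. Capitals mark matches, on either strand, to the motifs named after the sequences. Which start the reads came from cannot be read from gene counts.
ABCA2, chr9:137028923-137029172, minus strand: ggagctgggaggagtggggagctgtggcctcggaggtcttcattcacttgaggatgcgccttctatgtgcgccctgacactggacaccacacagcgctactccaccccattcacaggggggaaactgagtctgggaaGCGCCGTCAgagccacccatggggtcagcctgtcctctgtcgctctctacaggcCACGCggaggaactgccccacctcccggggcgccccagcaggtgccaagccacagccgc
ABCA3, chr16:2340729-2340978, minus strand: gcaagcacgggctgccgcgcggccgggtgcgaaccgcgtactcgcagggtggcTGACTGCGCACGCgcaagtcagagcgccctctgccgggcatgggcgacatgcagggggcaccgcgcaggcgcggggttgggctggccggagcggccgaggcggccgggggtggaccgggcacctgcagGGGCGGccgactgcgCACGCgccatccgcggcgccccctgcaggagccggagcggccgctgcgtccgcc
ABCB1, chr7:87713296-87713545, minus strand: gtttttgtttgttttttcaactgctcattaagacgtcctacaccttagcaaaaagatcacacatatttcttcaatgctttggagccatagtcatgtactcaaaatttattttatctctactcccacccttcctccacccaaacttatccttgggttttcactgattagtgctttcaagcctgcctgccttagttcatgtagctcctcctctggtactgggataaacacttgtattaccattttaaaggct
ABCC2, chr10:99782390-99782639, plus strand: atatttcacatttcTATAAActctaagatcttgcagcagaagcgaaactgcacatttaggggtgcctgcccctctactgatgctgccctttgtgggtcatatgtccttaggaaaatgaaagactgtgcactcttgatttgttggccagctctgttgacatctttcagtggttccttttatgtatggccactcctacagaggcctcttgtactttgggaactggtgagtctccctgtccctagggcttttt
The windows of ABCA2 and ABCA3 were 65.2% and 79.2% G and C, those of ABCB1 and ABCC2 39.2% and 45.6%, where the median over 27305 RefSeq promoters of the same length was 58.0%.

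The motifs searched were ACGTG and GCGTG, cores of the hypoxia response element, TGACNNNGC, the core of the antioxidant response element, AGGTCA, the half-site of nuclear receptors, GGGCGG, the GC box, and TATAAA, the TATA box. ABCA2 held GCGTG at position -59 and TGACNNNGC at -113, both on the opposite strand, counted to the first matched base from the gene start. ABCA3 held GCGTG at -189 and -54, TGACNNNGC at -197, which shares a base with the first GCGTG, and GGGCGG at -69. ABCC2 held TATAAA at -236, and the window of ABCB1 held none of these letters.

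Among the 27 tested genes 23 had a promoter entry; ABCC1 and ABCC3 were among those without one. GCGTG was in 12 of the 23 windows (52.2%), against 31.9% of all promoters, and ACGTG in 4 (17.4%), against 18.7%. GGGCGG was in 16 (69.6%), against 42.3% of all promoters, and TGACNNNGC in 6 (26.1%), against 11%. TATAAA was found in 3 (13%), against 11.1%, and AGGTCA in 1 (4.35%), that of ABCF1, against 12.1%. All promoters include those of genes that were not tested, whereas the windows are of tested genes only. What part this had in the shares was not tested. GCGTG was found upstream of genes that rose against HK2 in both carcinoma lines (ABCA2, ABCC4, ABCF2) and of genes that fell in both, among them ABCA7, ABCB9, ABCB10 and ABCE1. A match describes the letters only and does not show that a factor binds there.

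Of the sterol and phospholipid exporters, ABCA2, a carrier of late endosomes and lysosomes with a part in sterol and sphingolipid handling, had the largest differences from HK2 among the 27 tested members. It was at 17.5, 15.5 and 16.0 CPM in the HK2 libraries, at 196, 201 and 190 in 786-O and at 257, 262 and 245 in 786-M1A. All carcinoma libraries lay above all HK2 libraries by more than 10 times, and the 786-M1A libraries lay above those of 786-O without overlap. The gene, at chr9:137007234-137028922 on the minus strand, was 12-fold higher in 786-O than in HK2 (log2 3.59, SE 0.05, edgeR adjusted p = 1.53e-23) and 15.7-fold higher in 786-M1A (log2 3.97, SE 0.05, adjusted p = 3.23e-24). Between the carcinoma lines it rose 1.30-fold (log2 0.38, adjusted p = 7.57e-08). Its share of the reads of the family went from 0.878% in HK2 to 11.3% in 786-O and 14% in 786-M1A.

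ABCA12, which loads glucosylceramide into the lamellar granules of the skin, was the other member of this group with a large rise. The HK2 libraries were at 1.92, 2.13 and 1.90 CPM, those of 786-O at 16.2, 18.1 and 19.8, and those of 786-M1A at 7.01, 10.4 and 9.70. Here 786-O was the highest line and 786-M1A lay between 786-O and HK2, with no overlap among the lines. Against HK2 the difference was 9.08-fold in 786-O (log2 3.18, SE 0.14, edgeR adjusted p = 1.63e-11) and 4.57-fold in 786-M1A (log2 2.19, SE 0.16, adjusted p = 5.10e-09), and from 786-O to 786-M1A it fell by 0.99 on the log2 scale (adjusted p = 2.80e-06).

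ABCA3, the phospholipid carrier of lung surfactant, and ABCA5, a lysosomal member, separated the metastatic derivative from both other lines. ABCA3 was at 27.4, 25.1 and 27.1 CPM in HK2, at 27.0, 28.9 and 28.3 in 786-O and at 64.6, 65.4 and 61.9 in 786-M1A. The HK2 and 786-O libraries overlapped, and every 786-M1A library was above them. ABCA3 rose 2.28-fold from 786-O to 786-M1A (log2 1.19, SE 0.05, edgeR adjusted p = 1.10e-14), whereas its value in 786-O against HK2 was 0.08 on the log2 scale (adjusted p = 0.142). ABCA17P, a pseudogene that starts 0.2 kb from ABCA3 on the opposite strand, had between 125 and 174 counts per library in HK2, compared with 27 to 29 in 786-O and 46 to 53 in 786-M1A.

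ABCA5 was at 3.75, 3.47 and 3.23 CPM in HK2, at 2.97, 2.99 and 3.18 in 786-O and at 1.08, 1.07 and 0.952 in 786-M1A. The 786-M1A libraries were the low ones. It was 2.94-fold lower in 786-M1A than in 786-O (log2 -1.56, SE 0.14, edgeR adjusted p = 4.28e-09) and 3.33-fold lower than in HK2, and -0.18 on the log2 scale in 786-O against HK2 (adjusted p = 0.113). The end of its annotated exons shares 318 bases with ABCA10 on the same strand, which had at most 3 counts in any library.

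ABCA1, which hands cholesterol and phospholipids to apolipoprotein A-I and is a classical target of the liver X receptors, had the highest level per kb of merged exons in HK2, and rank 3 where the longest transcript was taken as the length. It was at 546, 489 and 591 CPM in HK2, at 375, 420 and 356 in 786-O and at 299, 361 and 329 in 786-M1A. HK2 libraries were above all carcinoma libraries, and those of 786-O and 786-M1A overlapped. It fell by 0.50 on the log2 scale in 786-O (SE 0.10, edgeR adjusted p = 0.00125) and by 0.72 in 786-M1A (adjusted p = 0.000125) against HK2. In 786-M1A against 786-O the value was -0.22 (adjusted p = 0.0890), with an adjusted p of 0.0264 without the second 786-M1A library and 0.0475 without the third 786-O library, and of 0.0497 and 0.0482 without the second or the third HK2 library. ABCA7, a phospholipid exporter related to ABCA1, fell by 0.91 and 0.97 on the log2 scale in 786-O and 786-M1A against HK2.

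Of the 11 sterol and phospholipid exporters, 6 were tested. In 786-O against HK2, 2 were called higher and 2 lower, where 84.2% of all genes were called. In 786-M1A against HK2, 3 were called higher (ABCA2, ABCA3, ABCA12) and 3 lower (ABCA1, ABCA5, ABCA7), where 85.0% of all genes were called, and in 786-M1A against 786-O, 2 were higher and 2 lower, where 56.2% were called. The other 5 (ABCB4, ABCG1, ABCG4, ABCG5 and ABCG8) were under the filter.

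Among the tested drug and conjugate pumps, ABCB1, the P-glycoprotein that exports many drugs, had the largest fall against HK2. It was at 57.6, 55.1 and 56.5 CPM in HK2, at 17.6, 18.3 and 18.4 in 786-O and at 13.6, 15.2 and 15.1 in 786-M1A. The lines did not overlap, and HK2 stood far above the carcinoma lines. ABCB1, at chr7:87503017-87713295 on the minus strand, was 3.12-fold lower in 786-O (log2 -1.64, SE 0.05, edgeR adjusted p = 1.06e-17) and 3.86-fold lower in 786-M1A (log2 -1.95, SE 0.05, adjusted p = 9.27e-19) than in HK2. From 786-O to 786-M1A it fell by 0.31 on the log2 scale (adjusted p = 0.000103).

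ABCC2, also named MRP2, is the apical pump for glutathione and glucuronide conjugates, at chr10:99782640-99852594 on the plus strand. It was at 1.83, 1.88 and 1.81 CPM in HK2, at 5.93, 6.78 and 6.32 in 786-O and at 1.11, 0.731 and 0.714 in 786-M1A. The order of the lines was 786-O, HK2, 786-M1A, without overlap. Compared with HK2 it was 3.44-fold higher in 786-O (log2 1.78, SE 0.12, edgeR adjusted p = 5.84e-12) and 2.17-fold lower in 786-M1A (log2 -1.11, SE 0.18, adjusted p = 5.70e-06). The direct comparison of 786-M1A with 786-O gave a 7.44-fold lower level (log2 -2.90, SE 0.14, adjusted p = 2.16e-13). These are low levels, with 95 counts in the 786-M1A libraries together, 788 in 786-O and 217 in HK2.

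ABCC3, or MRP3, the basolateral counterpart of ABCC2, was high in both carcinoma lines. HK2 libraries were at 14.7, 12.8 and 13.0 CPM, those of 786-O at 53.5, 55.0 and 52.7 and those of 786-M1A at 52.1, 55.0 and 52.2. The carcinoma lines overlapped and stood above HK2. Against HK2 it rose 4.01-fold in 786-O (log2 2.00, SE 0.05, edgeR adjusted p = 1.16e-18) and 3.96-fold in 786-M1A (log2 1.99, SE 0.05, adjusted p = 1.28e-18), and the value between the carcinoma lines was -0.02 (SE 0.05, adjusted p = 0.796).

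ABCC4, or MRP4, which exports cyclic nucleotides, prostaglandins and urate, was at 82.3, 78.9 and 78.5 CPM in HK2, at 102, 107 and 108 in 786-O and at 124, 128 and 130 in 786-M1A. The levels were separate in the 3 lines. It rose by 0.41 on the log2 scale in 786-O against HK2, by 0.68 in 786-M1A against HK2 and by 0.27 in 786-M1A against 786-O (edgeR adjusted p = 4.89e-09, 7.73e-13 and 4.80e-06). ABCC5, or MRP5, another exporter of cyclic nucleotides, went the other way, at 54.3, 49.7 and 53.7 CPM in HK2, compared with 28.3, 27.1 and 27.0 in 786-O and 24.1, 26.4 and 25.1 in 786-M1A. Every HK2 library was above every carcinoma library. It was 1.91-fold lower in 786-O and 2.08-fold lower in 786-M1A than in HK2 (edgeR adjusted p = 1.54e-13 and 2.18e-14), and its value of -0.12 in 786-M1A against 786-O was not called (adjusted p = 0.0523), whereas it was called without the second HK2 library (0.0290) or the second 786-M1A library (0.0296).

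ABCC1, or MRP1, a widely expressed conjugate pump, was at 92.5, 84.9 and 89.5 CPM in HK2, at 96.8, 101 and 92.6 in 786-O and at 93.6, 103 and 97.2 in 786-M1A. Its libraries lay close together, those of the carcinoma lines a little above HK2. The log2 differences of 0.12 and 0.14 against HK2 were called (edgeR adjusted p = 0.0176 and 0.00810), and both calls were lost without the second HK2 library (adjusted p = 0.0992 and 0.0712), without the second library of the carcinoma line compared (0.106 and 0.0643) and with upper-quartile scaling (0.100 and 0.0925). ABCC10, a broad drug pump of the same subfamily, rose by 0.79 in 786-O and by 0.42 in 786-M1A against HK2 and was lower in 786-M1A than in 786-O (log2 -0.37). Its exons share 76 bases with DLK2 on the opposite strand, and whether counting used the strand is not given in the sources used here.

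ABCG2, the breast cancer resistance protein and a urate exporter of the apical membrane, was near the limit of what was tested in all lines. It was at 1.249, 1.19 and 1.27 CPM in HK2, at 1.12, 1.96 and 1.44 in 786-O and at 1.17, 1.23 and 1.06 in 786-M1A. The lines overlapped. The log2 values of 0.26, -0.10 and -0.37 in the 3 comparisons had SE between 0.18 and 0.20 and edgeR adjusted p between 0.103 and 0.627. Without the first 786-O library it was called in 786-O against HK2 (log2 0.44, adjusted p = 0.0275) and in 786-M1A against 786-O (log2 -0.55, adjusted p = 0.0161).

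Of the 11 drug and conjugate pumps 8 were tested. In 786-O against HK2, 5 were higher (ABCC1, ABCC2, ABCC3, ABCC4, ABCC10), 2 lower (ABCB1, ABCC5) and ABCG2 was not called, where 41.7% of all genes tested were higher and 42.5% lower. In 786-M1A against HK2, 4 were higher and 3 lower, with ABCC2 now among the lower ones, where 42.0% of all genes were higher and 42.9% lower. Summed per subfamily, the level of the C members was 260 ± 8.91 CPM (SD, n = 3) in HK2, compared with 317 ± 5.57 in 786-O and 326 ± 9.98 in 786-M1A, and that of the B members was 207 ± 3.61, 144 ± 2.78 and 139 ± 2.04.

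**Figure D2:**
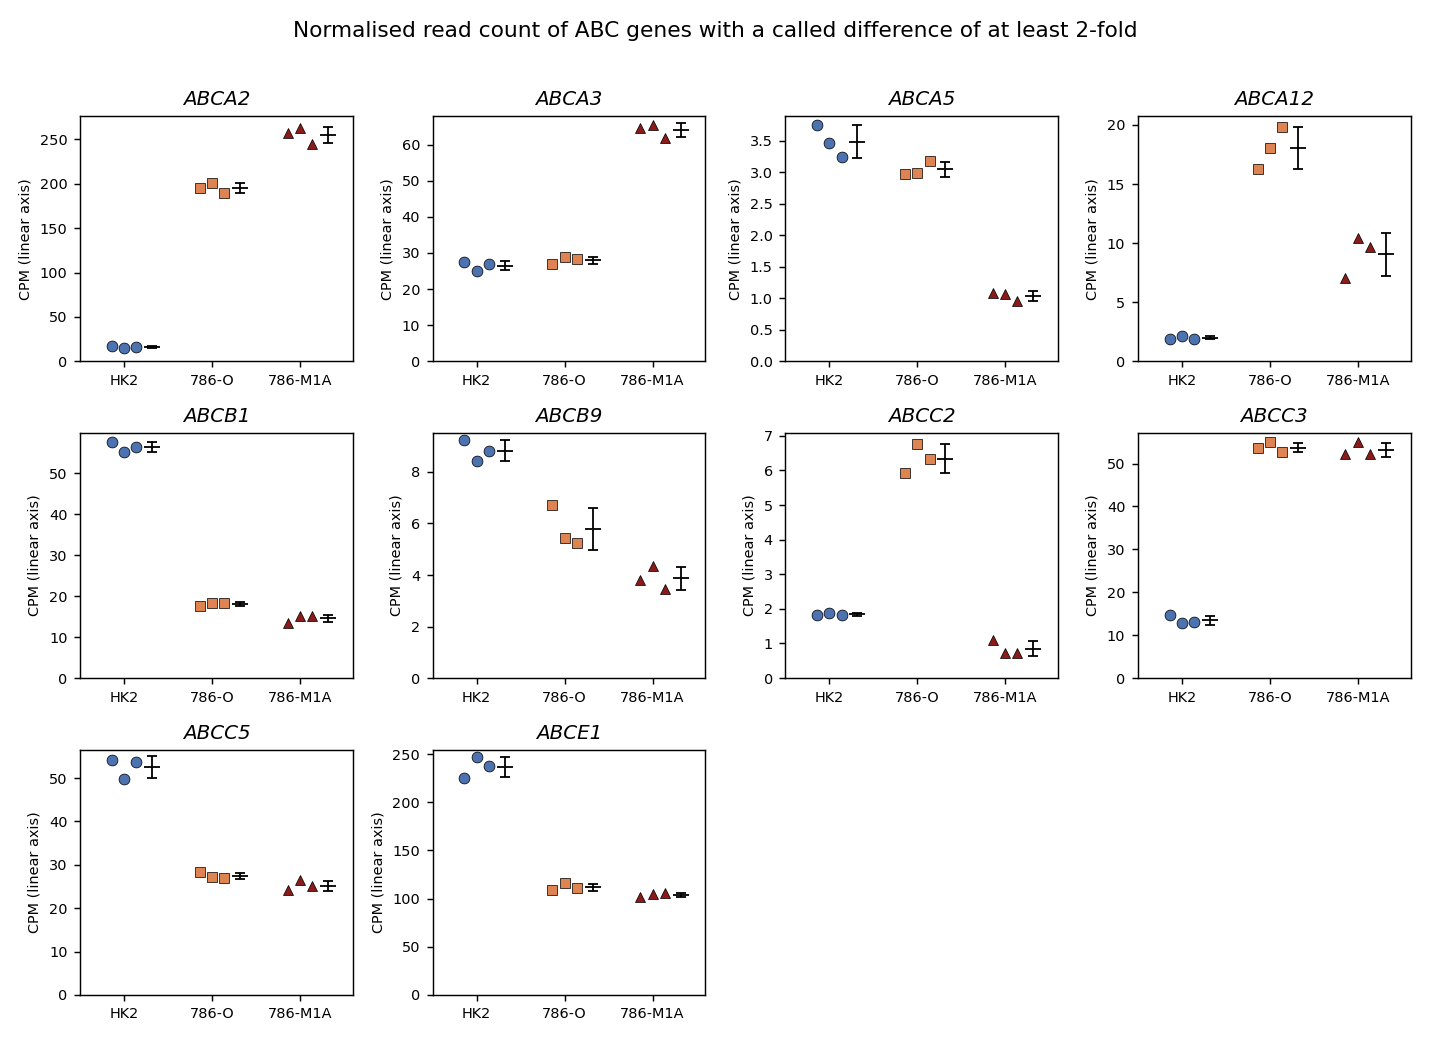
CPM (linear axis) of 10 ABC genes with a called difference of at least 2-fold in any comparison, in HK2 (circles), 786-O (squares) and 786-M1A (triangles); each point is a library and the bar beside it the mean with SD, n = 3. ABCA3 and ABCA5 set 786-M1A apart from both other lines, ABCC3, ABCB1, ABCC5 and ABCE1 mainly set HK2 apart, and ABCC2 is highest in 786-O (5.93 to 6.78 CPM).

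Of the mitochondrial members, ABCB10, a carrier of the inner membrane linked to haem synthesis, fell by 0.56 and 0.73 against HK2 in 786-O and 786-M1A. ABCB8, a subunit linked to mitochondrial potassium transport and iron, rose by 0.34 and 0.57.

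ABCB6, a porphyrin carrier of mitochondrial and lysosomal membranes, rose by 0.18 in 786-O against HK2 (edgeR adjusted p = 0.00664), which was lost without the third HK2 library (log2 0.12, adjusted p = 0.0711). In 786-M1A against HK2 its value was -0.01 (adjusted p = 0.893). Of their fixed partners in haem and iron-sulfur metabolism, 7 genes that were all tested, 3 were called higher and 3 lower in each comparison with HK2, where 84.2% and 85.0% of all genes were called. ISCU, the scaffold protein of iron-sulfur assembly, went from 54.5 CPM in HK2 to 30.9 in 786-O and 34.9 in 786-M1A.

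The lysosomal peptide carrier ABCB9 was at 9.22, 8.42 and 8.82 CPM in HK2, at 6.72, 5.43 and 5.23 in 786-O and at 3.81, 4.33 and 3.46 in 786-M1A. The 3 lines did not overlap, with 786-M1A lowest. It was 1.51-fold lower in 786-O and 2.27-fold lower in 786-M1A than in HK2 (edgeR adjusted p = 6.91e-06 and 8.91e-10), and fell by 0.59 from 786-O to 786-M1A (adjusted p = 0.000125). Its exons share 1590 bases with ARL6IP4 and 1656 with OGFOD2 on the opposite strand, both of which had more counts than ABCB9, so its level is uncertain if reads were counted without strand. ABCD4, which passes vitamin B12 out of the lysosome, fell by 0.34 and 0.36 against HK2.

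The peroxisomal half-transporter ABCD3, which imports branched and dicarboxylic fatty acids, fell by 0.13 in 786-O and by 0.22 in 786-M1A against HK2 (edgeR adjusted p = 0.00428 and 4.01e-05). Of the 5 peroxisome partners, all tested, 4 were lower, among them PEX3, PEX19 and HSD17B4, and ACAA1, the thiolase of this pathway, was higher in both carcinoma lines, where 42.5% and 42.9% of all genes were lower. ABCD2 had between 3 and 10 counts per library in HK2 and 786-O and at most 1 in 786-M1A.

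ABCE1, which splits ribosomes after termination, was at 226, 247 and 238 CPM in HK2, at 109, 116 and 111 in 786-O and at 102, 104 and 105 in 786-M1A. Every HK2 library was far above the carcinoma libraries, and those of 786-O lay just above those of 786-M1A. It was 2.12-fold lower in 786-O (log2 -1.08, SE 0.04, edgeR adjusted p = 3.42e-16) and 2.28-fold lower in 786-M1A (log2 -1.19, SE 0.04, adjusted p = 6.44e-17) than in HK2. The step of -0.11 from 786-O to 786-M1A was called (adjusted p = 0.0312), and was lost without the second or the third 786-O library (adjusted p = 0.156 and 0.0602) or the first or second 786-M1A library (0.0747 and 0.0582). Its exons share 276 bases with OTUD4 and 132 with ANAPC10 on the opposite strand.

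ABCF1, which acts with the initiation factor eIF2, fell by 0.44 on the log2 scale in both carcinoma lines against HK2 (edgeR adjusted p = 1.88e-10 and 1.53e-10). ABCF2 rose by 0.31 and 0.70 (adjusted p = 2.31e-07 and 2.87e-13) and by 0.39 from 786-O to 786-M1A. ABCF3, the relative of the yeast translation regulator Gcn20, was within 0.13 on the log2 scale in all comparisons, and was called in 786-M1A against HK2 alone (adjusted p = 0.00725), a call lost without the third HK2 library (0.0536) and with upper-quartile scaling (0.128). Of the 8 partners of these proteins in translation, all tested, 5 were lower than in HK2 in both carcinoma lines, where 42.5% and 42.9% of all genes were lower, among them PELO, the rescue factor that works with ABCE1 (45, 33.2 and 28.9 CPM in HK2, 786-O and 786-M1A), and EIF2S1, the alpha subunit of eIF2 (177, 99.7 and 105 CPM). EIF2AK4, the amino acid sensing kinase GCN2, was higher in both (81.6, 143 and 156 CPM).

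Per kb of exon, ABCA1, ABCF1 and ABCF2 were among the 4 highest tested members in every line, and ABCE1 among the 5 highest. In HK2 the order was ABCA1 at 47.8 ± 4.48 CPM per kb (SD, n = 3), ABCF1 at 40.3, ABCE1 at 37.8 ± 1.70 and ABCF2 at 25.5. In 786-O it was ABCA1 at 33.8 ± 2.91, ABCF2 at 31.5 and ABCF1 at 29.7, of which ABCA1 and ABCF2 did not differ beyond their spread. In 786-M1A ABCF2 led at 41.3, followed by ABCF1 at 29.6 and ABCA1 at 29.1 ± 2.74, which did not differ beyond their spread. ABCA2 went from rank 19 among the 27 in HK2 to rank 5 in 786-O and rank 4 in 786-M1A, and ABCB1 from rank 9 to rank 17 in both. Of the multidrug pumps, ABCC4 and ABCC1 stood highest in every line, at 9.26 and 10.2 CPM per kb in HK2 and 14.8 and 11.2 in 786-M1A, while ABCC2 and ABCG2 stayed below 1 CPM per kb in all lines. With the length of the longest transcript in place of merged exons, 10, 9 and 9 of the 10 highest members in HK2, 786-O and 786-M1A were the same. The leading member changed from ABCA1 to ABCE1 in HK2 and from ABCA1 to ABCF1 in 786-O, and remained ABCF2 in 786-M1A.

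**Figure D3:**
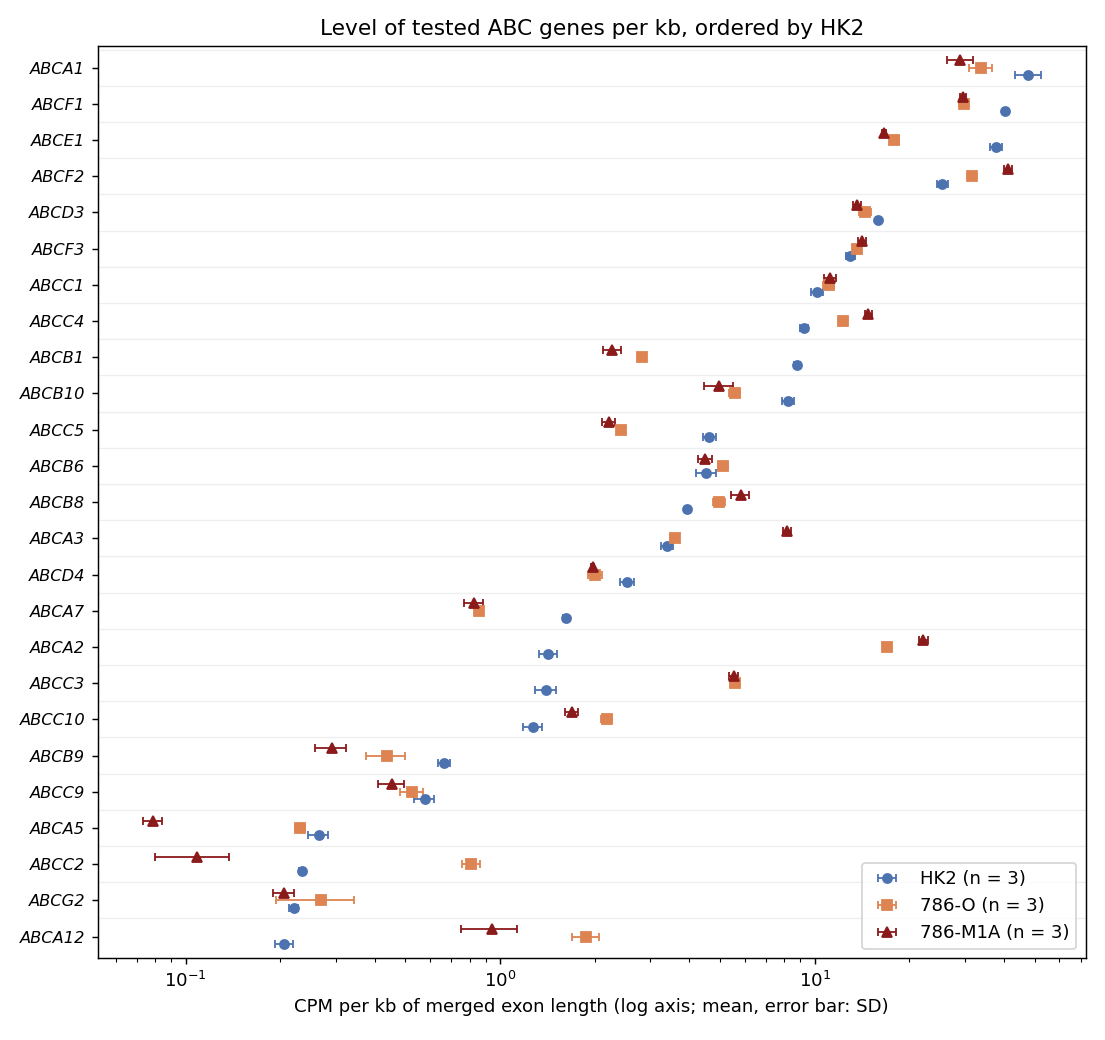
Level of 25 of the 27 tested ABC genes in CPM per kb of merged exon length (log axis), ordered by HK2; symbols are means of 3 libraries of HK2 (circles), 786-O (squares) and 786-M1A (triangles), error bars are SD. ABCA2 moves from 1.42 CPM per kb in HK2 to 17.0 in 786-O and 22.2 in 786-M1A, and ABCB1 from 8.78 to 2.82 and 2.27.

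The step from 786-O to 786-M1A thus rested on few large differences. ABCA3 was more than 2-fold higher and ABCA5 and ABCC2 were more than 2-fold lower. The other 13 called members differed by log2 values between -0.99 and 0.39. ABCC9, the regulatory subunit of potassium channels, was at 10.1 CPM in HK2, compared with 9.19 in 786-O and 7.90 in 786-M1A, and its call of -0.21 was lost with DESeq2 (adjusted p = 0.0633) and without the first or the third HK2 library (0.0533 and 0.0512), the second or the third 786-O library (0.195 and 0.0849) or the first 786-M1A library (0.209). The call of ABCB10 (-0.16) was lost without the first HK2 library (0.0503), the first or the third 786-O library (0.0983 and 0.106) or the first or the third 786-M1A library (0.226 and 0.0566). KCNJ8, the pore subunit that pairs with ABCC9, lies 22.7 kb from it on chromosome 12. KCNJ8 was at 6.43, 2.06 and 0.0890 CPM in HK2, 786-O and 786-M1A and was called lower at each step. In 786-M1A it had only 2 to 5 counts per library.

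Libraries of the lines compared did not overlap for 24 of the 27 genes in 786-O against HK2 (85.5% of all genes), 25 in 786-M1A against HK2 (85.0%) and 17 in 786-M1A against 786-O (61.7%). The smallest p of an exact two-sided permutation of 3 libraries against 3 is 0.1, so the calls rest on the model fitted over all genes.

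Below the filter, 3 genes had more than 10 counts in several libraries. ABCC6, the transporter of pseudoxanthoma elasticum, had 80, 81 and 112 counts in HK2, compared with 4, 4 and 6 in 786-O and 3, 4 and 4 in 786-M1A. Relative to the summed library totals, its counts were 21.1 times lower in 786-O (95% interval 12.4 to 39.1, exact, counting error only) and 25.1 times lower in 786-M1A (13.8 to 50.9). The near-identical pseudogene ABCC6P1 moved alike, with 65 to 69 counts per library in HK2 and 2 to 7 in the carcinoma lines, so how the reads were split between the copies is uncertain. ABCC1, its neighbour at 6.5 kb on chromosome 16, was not called lower in any comparison.

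ABCB4, the phosphatidylcholine carrier of bile and the neighbour of ABCB1 at 27.0 kb on chromosome 7, had 48, 65 and 100 counts in HK2, compared with 6, 4 and 5 in 786-O and 14, 4 and 12 in 786-M1A. The HK2 libraries were the high ones, as for ABCB1. ABCA13, a very large member of subfamily A, was the reverse, with 3, 8 and 8 counts in HK2, compared with 42, 23 and 45 in 786-O and 40, 30 and 33 in 786-M1A, a ratio of 5.35 for both carcinoma lines (intervals 3.27 to 9.23 and 3.26 to 9.25).

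ABCG1, the sterol exporter that works beside ABCA1, had 1, 0 and 2 counts in HK2, compared with 8, 6 and 5 in 786-O and none in 786-M1A, where 0 counts allow up to 0.0805 CPM at a floor of 3 counts. ABCB11, the bile salt export pump of the liver, ABCC11, ABCC12, ABCA4, ABCA10, ABCB5, ABCG4, ABCG5 and ABCG8 had at most 14 counts in any library. With the filter removed, 6 of the untested genes were called in 786-O against HK2 (ABCA4, ABCA13, ABCB4, ABCB11, ABCC6, ABCG1), 9 in 786-M1A against HK2 (ABCA4, ABCA10, ABCA13, ABCB4, ABCB11, ABCC6, ABCC12, ABCD2, ABCG4) and 4 in 786-M1A against 786-O (ABCB4, ABCD2, ABCG1, ABCG4). At such counts a fitted fold depends on the prior count and is not given. Without the filter, 13550, 13738 and 8080 of all 21241 genes fitted were called in these comparisons, in the same order.

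**Figure D4:**
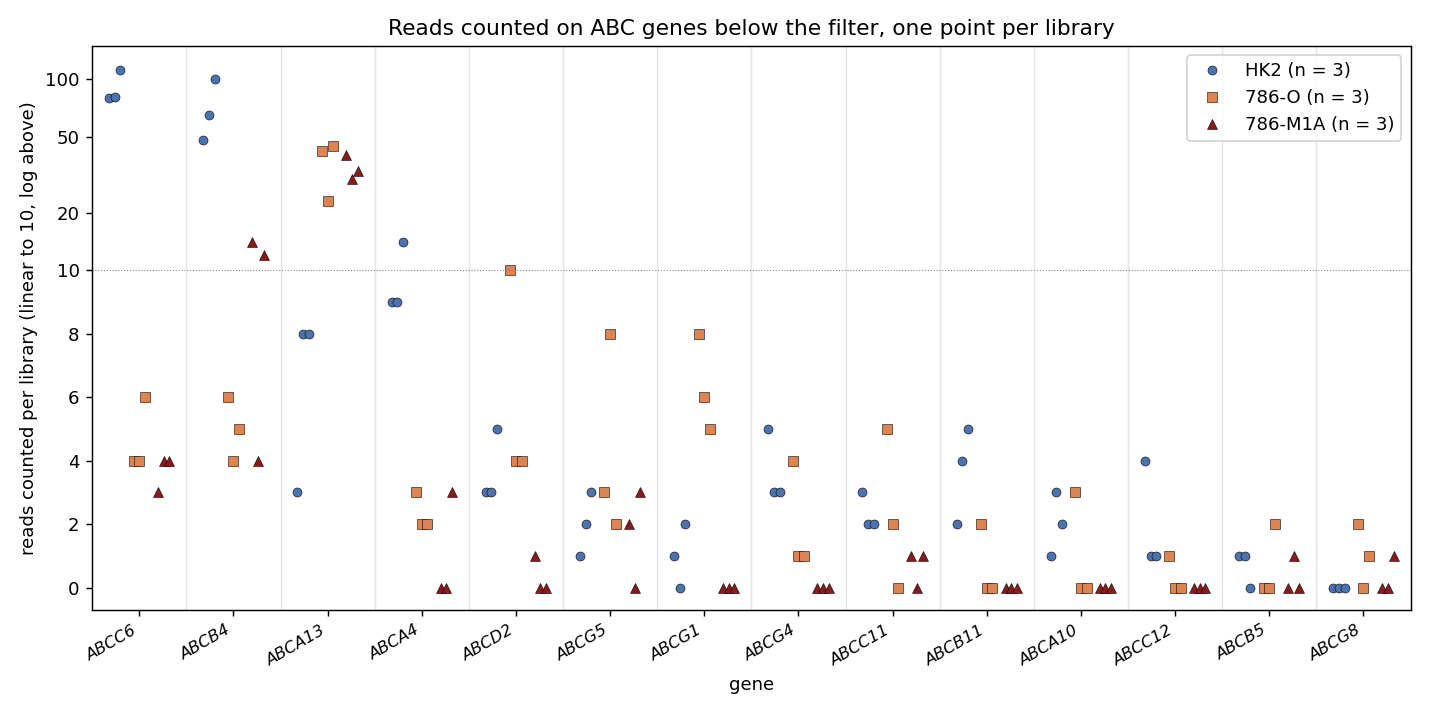
Reads counted per library (linear to 10, log above) on the 14 untested ABC genes with any count, in HK2 (circles), 786-O (squares) and 786-M1A (triangles); each point is a library. ABCC6 and ABCB4 are high in HK2 (80 to 112 and 48 to 100 counts), ABCA13 in the carcinoma lines (23 to 45 counts), and the other genes stay at or below 14.

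Genes of the family that carry other names were read from a fixed list. TAP1, a subunit of the peptide transporter that loads class I molecules, rose from 40.9 ± 1.13 CPM (SD, n = 3) in HK2 to 88.1 ± 3.03 in 786-O and 86.9 ± 4.54 in 786-M1A (log2 1.10 and 1.08, edgeR adjusted p = 2.69e-15 and 3.39e-15). Its partner TAP2 was lower, by log2 values of -0.26 and -0.16. CFTR, the chloride channel of the family, was at or below 0.0107 CPM on average in all lines.

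The regulators known to act on ABC genes were set beside them, 15 genes of which 12 were tested. All 12 were called in both comparisons with HK2, 6 higher and 6 lower, and 7 in 786-M1A against 786-O, where 84.2%, 85.0% and 56.2% of all genes tested were called. RXRA, the shared partner of the lipid-sensing receptors, was at 69.7 CPM in HK2, compared with 169 in 786-O and 197 in 786-M1A. NR1H3, the liver X receptor alpha, was at 7.43, 3.14 and 3.81, and NR1H2, the liver X receptor beta, at 34.5, 42.2 and 47.2. Against HK2, NR1H3 was called lower and NR1H2 higher in both carcinoma lines. PPARG was at 51.8, 20.1 and 9.96. AHR was at 42.6, 72.9 and 48.0, the highest in 786-O. NR1I2, the pregnane X receptor that induces ABCB1 and ABCC2 in liver, was at or below 0.00719 CPM on average. HIF1A fell from 699 CPM to 9.98 and 6.79, and EPAS1, which encodes HIF2A, from 303 to 78.7 and 123. What part any of them had in the levels of the ABC genes was not tested.

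Of 8 partners in sterol efflux 7 were tested, and in each comparison with HK2 3 were higher and 3 lower, a called share near the 84.2% and 85.0% of all genes. APOE, an acceptor of the lipid that ABCA1 exports, was at 60.8 CPM in HK2 and at 0.132 and 0.107 in the carcinoma lines, with 3 to 8 counts per library there. PLTP, the phospholipid transfer protein, was at 46.5, 0.878 and 0.446, and NPC2, which lifts cholesterol out of lysosomes, at 155, 64.7 and 51.7. SCARB1, a receptor for high-density lipoprotein, rose from 131 to 210 and 341, and MYLIP, a target of the liver X receptors, stayed at 11.4, 11.5 and 11.4 CPM and was called in no comparison.

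Of 10 organic ion carriers of the proximal tubule 3 were tested. SLCO4C1 was at 11.3, 3.42 and 0.0888 CPM in HK2, 786-O and 786-M1A, with only 2 to 6 counts per library in 786-M1A. SLC22A4 and SLC22A5, carriers of ergothioneine and carnitine, were higher in both carcinoma lines, at 1.91, 4.36 and 4.73 and at 11.6, 20.9 and 16.7. Of 11 genes of glutathione synthesis, conjugation and breakdown, 8 were tested, among them GGT1 of its breakdown. Against HK2, 1 was higher and 5 lower in 786-O, and 3 were higher and 5 lower in 786-M1A. Of all genes tested, 41.7% and 42.0% were higher and 42.5% and 42.9% lower in these comparisons. The 3 called higher in 786-M1A were GSTK1 (log2 0.46), GSS (0.26) and GCLM (0.11), and GSS was the 1 called higher in 786-O (0.13). Among the lower genes, GSTP1 was at 506, 263 and 271 CPM and GSTM3 at 33.0, 11.1 and 7.25. GCLC, the catalytic subunit of the first step of synthesis, was at 42.3, 31.8 and 32.5.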

How the data were processed

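RNA was measured in 9 libraries, 3 per line, grouped by the cell line in the labels. Libraries were made with the TruSeq Stranded mRNA kit and read on a NextSeq, and the authors deposited raw read counts per gene, with neither normalization nor filter. The submitters' processing notes name featureCounts and GRCh38; the annotation and the use of strand in counting are not given in the sources used here.

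Symbols (27745 of 28395 identifiers matched) came from RefSeq, and gene positions, exon lengths and overlaps from GENCODE on GRCh38, which may differ from the annotation counted. Genes averaging 50 counts or more over the libraries were tested (12695) with TMM scaling (factors 0.964 to 1.03) and a robust quasi-likelihood fit of edgeR 4.0.16 in R 4.3.3, with all 9 libraries and no covariate; the study used the same filter with VSN and limma, and VSN was not available. SE are the log2 fold change divided by the root of F. The floor of 3 counts was 0.0661 to 0.0993 CPM, and intervals and floors cover counting error only. The fit was tested on simulated data.

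The members and lists were chosen with earlier results of these data known. Every ABC gene could be named, but a few genes of the family and of the lists are counted and not reported singly here. Values per library are given for the others with a called difference of at least 2-fold and for ABCA1, ABCB1, ABCC1, ABCC2, ABCC3, ABCC4 and ABCG2. Genes of low count were described further after their values were seen. Chi-square per degree of freedom between libraries of a line was 3.06 to 8.49, so none was a copy of another. Alternatives were RLE and upper-quartile scaling, DESeq2 1.42.0, limma 3.58.1 on log2 CPM, other filters, only the lines compared, a replicate block, a 1.5-fold threshold, another gene length and leaving out each library. Motifs and exact tests used Python 3.11.15 with scipy 1.17.1.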

Additional observations from a re-analysis of the deposited data

Results flagged for a closer look

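ABCC2, the apical conjugate pump, was singled out because its difference from HK2 went up in 786-O and down in 786-M1A. The direct value of 786-M1A against 786-O was -2.90 on the log2 scale (adjusted p = 2.16e-13 by edgeR). Its sign follows from the directions by which ABCC2 was picked, so it is not separate support. All 3 libraries of 786-M1A were below all 3 of 786-O and of HK2. The opposite directions against HK2 were called under all 17 alternatives. No other tested ABC gene was called in opposite directions against HK2. How many of all genes tested were called in this way was not counted.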

How the results depend on the processing

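Of 63 calls of an ABC gene in a comparison, 56 were kept under all alternatives, and the 7 lost ones, all with log2 differences below 0.22 in size, are named with the results. Leaving out 1 library gave 21 to 23 called ABC genes in 786-O against HK2, 24 to 25 in 786-M1A against HK2 and 13 to 18 in 786-M1A against 786-O. The number with at least 2-fold differences, 6, 11 and 3 in these comparisons, became 12, 20 and 7 without a filter on low counts, where 41 ABC genes are tested, and with a threshold of 1.5-fold it became 11 in 786-O against HK2 and 5 in 786-M1A against 786-O. How many of all genes passed the fold thresholds at these settings was not counted. The larger numbers are therefore not read as a trait of the family. Values close to 0 changed sign without being called. For ABCB6 in 786-M1A against HK2 the log2 value was 0.011 without a filter and ran from -0.068 to 0.032 when single libraries were left out. In 786-M1A against 786-O these ranges were -0.022 to 0.0079 for ABCF1, -0.020 to 0.048 for ABCC1, -0.057 to 0.012 for ABCD4 and -0.042 to 0.00021 for ABCC3. The cause was not tested. Upper-quartile scaling moved the median of all genes by -0.06 at most. Same-numbered libraries share only a number. The correlation of their deviations was -0.06 to -0.03 for 786-O and HK2, -0.17 to 0.04 for 786-M1A and HK2 and 0.07 to 0.21 for 786-M1A and 786-O, where every library correlated best with its own number, a hint from the data and not the design. With a replicate block 22, 25 and 16 ABC genes were called, and 6, 11 and 4 with at least 2-fold. Depth limits the 18 genes under the filter, whose levels are given as counts.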
